A study of Mus musculus with 6 samples.

Results

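Transcripts for the sodium pump, its FXYD regulators and the epithelial sodium channel (ENaC) were followed in explants of the embryonic mouse ureter with and without lithium chloride (LiCl). The genes were taken by symbol from a named list and comprised *Atp1b1*, *Fxyd1*, *Fxyd3*, *Fxyd5*, *Fxyd6*, *Scnn1a*, *Scnn1b* and *Scnn1g*. The 8 genes are a part of that list. All 8 reached 10 or more counts in at least 3 of the 6 samples and were tested, among 18188 tested genes in all. This limit was part of the rule that chose the genes, so that all 8 met it is not a result. *Fxyd3* stood closest to that limit, with 3 control samples and 1 LiCl sample at 10 counts or above. It therefore met the limit mainly through the group in which it was high.

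Ureters of wildtype NMRI embryos were isolated at E12.5 (embryonic day), kept on Transwell membranes for 18 h and profiled by bulk RNA-seq of poly-A RNA. The 3 control samples received water and the 3 LiCl samples received 15 mM LiCl, and the groups shared all else that the sources describe. LiCl inhibits the kinase GSK3 and is used to activate canonical WNT signaling, and the comparison asks which transcripts of the early ureter respond to it. The explant holds ureteric epithelium (UE) and ureteric mesenchyme (UM) together, LiCl reaches both, and how many ureters went into each sample is not given in the sources used here. Where nothing says that replicates came from separate cultures, the p-values measure only the spread between these samples.

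The sodium pump (Na+/K+-ATPase) sits in the basolateral membrane of epithelia and exports sodium in exchange for potassium. Its catalytic alpha subunit needs a beta subunit for folding and delivery to the membrane, and single-span FXYD proteins bind the complex and tune its affinity and turnover. ENaC, built from an alpha (*Scnn1a*), a beta (*Scnn1b*) and a gamma (*Scnn1g*) subunit, admits sodium through the apical membrane of tight epithelia such as the collecting duct and the urothelium lining the urinary tract. Lithium ions also pass through ENaC.

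Among the genes encoding the channel, *Scnn1b* and *Scnn1g* are direct neighbours in the mouse genome, and *Fxyd3* had the lowest level and the lowest ratio of LiCl to control among the 8 genes. The 250 bases before the start of these 3 genes, from RefSeq on GRCm38.p6, are shown because the channel pair fell together and *Fxyd3* had the largest fold change, with capitals marking a match on either strand to the TCF/LEF word, which is CTTTG followed by a pair of bases that are each A or T. TCF and LEF are the DNA-binding partners of beta-catenin in canonical WNT signaling.
Scnn1g, chr7:121734229-121734478, plus strand: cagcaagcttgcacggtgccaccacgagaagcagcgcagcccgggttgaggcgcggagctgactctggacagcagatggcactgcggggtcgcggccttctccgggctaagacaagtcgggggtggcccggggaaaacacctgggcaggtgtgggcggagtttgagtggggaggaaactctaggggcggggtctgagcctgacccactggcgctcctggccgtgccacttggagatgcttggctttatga
Scnn1b, chr7:121864788-121865037, plus strand: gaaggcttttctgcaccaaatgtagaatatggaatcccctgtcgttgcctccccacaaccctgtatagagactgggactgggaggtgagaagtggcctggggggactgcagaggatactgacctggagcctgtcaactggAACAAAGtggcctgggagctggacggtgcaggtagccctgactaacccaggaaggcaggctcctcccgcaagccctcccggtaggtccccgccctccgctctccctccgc
Fxyd3, chr7:31076698-31076947, minus strand: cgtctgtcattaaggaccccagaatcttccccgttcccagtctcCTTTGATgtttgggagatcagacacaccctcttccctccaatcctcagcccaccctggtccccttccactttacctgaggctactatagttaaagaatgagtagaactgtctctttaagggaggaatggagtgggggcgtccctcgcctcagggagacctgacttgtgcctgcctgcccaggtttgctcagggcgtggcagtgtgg

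Each of *Scnn1b* and *Fxyd3* held 1 TCF/LEF word and *Scnn1g* held none. In *Fxyd3* the word CTTTGAT lay on the strand of the gene from 206 to 200 bases before the start, and in *Scnn1b* the word CTTTGTT lay on the opposite strand from 110 to 104 bases before it. Of all 32851 promoter windows of the same length, 14.8% held such a word. The windows of *Atp1b1*, *Fxyd1*, *Fxyd5* and *Fxyd6* held none. For forkhead factors the words TGTTTAC and TGTTTGC were searched, which 7.29% of all windows held, and of the 7 genes with a window *Fxyd6* alone had a match. The steroid receptor half-site TGTTCT, present in 16.1% of all windows, was absent from all 7. *Scnn1a* was not among the windows used here. These matches describe letters and say nothing about binding.

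All 3 ENaC subunit transcripts fell with LiCl. In CPM (gene counts relative to the library total, scaled by edgeR's TMM factors), *Scnn1b* stood at 44.8, 40.5 and 36.8 in the control samples and at 7.59, 7.77 and 6.67 in the LiCl samples. *Scnn1g* stood at 35.9, 34.4 and 32.2 CPM in controls and at 11.2, 9.06 and 9.44 CPM with LiCl. *Scnn1a* stood at 11.3, 9.95 and 8.55 CPM in controls and at 2.57, 2.54 and 1.88 CPM with LiCl. In each subunit the highest LiCl sample lay far under the lowest control sample, and the spread within either group was small beside the gap.

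By edgeR's quasi-likelihood test with Benjamini-Hochberg adjustment over all tested genes, *Scnn1b* was 5.54-fold lower (log2 fold change −2.47, SE 0.09, adjusted p = 3.30e-07). *Scnn1a* was 4.25-fold lower (log2 fold change −2.09, SE 0.16, adjusted p = 1.73e-05). *Scnn1g* was 3.45-fold lower (log2 fold change −1.79, SE 0.09, adjusted p = 1.30e-06). The beta subunit thus had the largest fold change of the channel and the gamma subunit the smallest. In bulk samples, fewer cells that carry a transcript and less of it per cell cannot be told apart. *Scnn1b* overlaps *Cog7* on the opposite strand in the GENCODE vM21 annotation, and *Cog7* held 749 to 845 counts over the 6 samples. The library kit keeps strand but the strand setting of the counting is not given in the sources used here, so a part of *Cog7* in the *Scnn1b* counts was not tested.

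**Figure D1:**
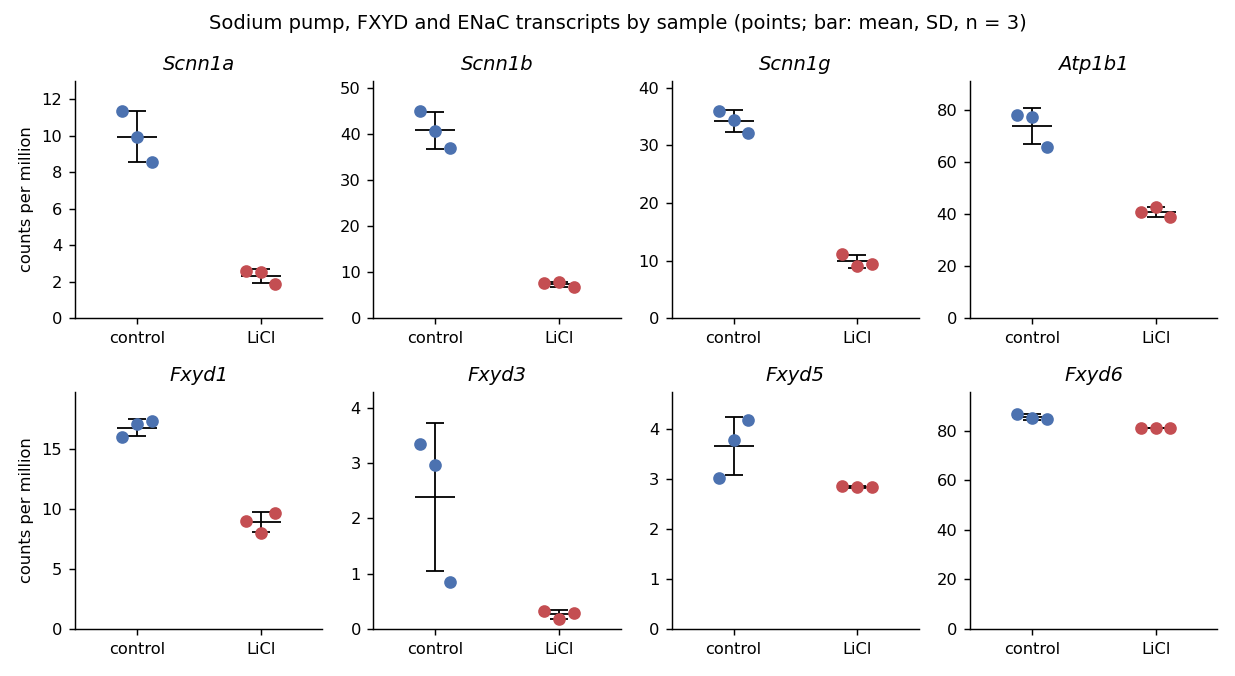
CPM (vertical axis, linear from 0) of the 8 genes in each of the 3 control and 3 LiCl samples, with the mean and SD as bars. The LiCl points lie below all control points in each of the 8 panels, by a wide margin for the 3 ENaC subunits and by little for *Fxyd5* and *Fxyd6*.

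Over the 8 genes, 4 were called lower and 0 higher by edgeR, where a call needs both an adjusted p below 0.05 and a change of more than 1 on the log2 scale in either direction. DESeq2 gave the same 4 and 0, and no gene of the 8 had a higher mean with LiCl. Of all tested genes, 4.59% were called lower and 2.74% higher. Besides the 3 channel subunits, *Fxyd3* was called, which had met the count limit mainly through its controls. With 10 counts asked of every sample, 3 of 7 tested genes were called lower. The 8 genes were chosen with earlier results of these data known. The shares of all tested genes therefore stand beside these counts as description only. Without the fold minimum 6 of the 8 genes fell and none rose, against 22.4% and 21.1% of all tested genes in the respective directions. The median log2 fold change was −1.35 over the 8 genes and −0.01 over all tested genes. Every LiCl sample lay below every control sample for all 8 genes, a pattern that 27.8% of all tested genes showed in this direction.

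The beta1 subunit of the pump, *Atp1b1*, also fell, by less than the fold minimum. It stood at 78.1, 77.3 and 65.8 CPM in the controls and at 40.8, 42.6 and 38.9 CPM with LiCl. Control replicate 3 was the lowest of its group and still lay well above all LiCl samples. The level was 1.81-fold lower with LiCl (log2 fold change −0.85, SE 0.07, adjusted p = 3.02e-05, edgeR). *Atp1b1* overlaps *Nme7* on the opposite strand in GENCODE vM21, which held 737 to 848 counts over the 6 samples, and a part of it in the *Atp1b1* counts was not tested.

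The other beta subunits did not move as one. *Atp1b2*, best known from glia, fell from 17.9 ± 0.67 CPM to 9.16 ± 0.84 CPM (SD, n = 3 each), with a log2 fold change of −0.97 and an adjusted p of 4.81e-05 by edgeR. *Atp1b3*, a widely expressed beta subunit, rose from 94.5 ± 4.01 CPM to 119 ± 1.33 CPM, a log2 fold change of 0.34 with an adjusted p of 4.95e-04. The 3 beta subunits can be set side by side in FPKM (fragments per transcript length and library size, the per-length unit that the authors deposited). *Atp1b1* made up 37.7%, 36.1% and 32.0% of their summed FPKM in the controls and 20.1%, 21.1% and 19.3% with LiCl. *Atp1b3* made up 58.3 ± 2.76% in the controls and 76.4 ± 1.04% with LiCl. The sum itself was 67.1 ± 1.77 FPKM in the controls and 65.5 ± 0.146 FPKM with LiCl, a difference of −1.59 FPKM without overlap between groups. In CPM, which is not scaled by length, the sum went from 186 ± 4.69 to 169 ± 1.14, also without overlap (exact two-sided permutation p = 0.1 for each sum). The shares of *Atp1b1* and *Atp1b3* did not overlap between groups, and their exact two-sided permutation p was 0.1, the smallest that 3 against 3 samples allow.

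Of the FXYD regulators, *Fxyd3* had the largest fold change of the 8 genes and the least certain one. FXYD3 (Mat-8) binds the pump in several epithelia. Its counts were 96, 92 and 26 in the controls and 10, 5 and 8 with LiCl, or 3.34, 2.96 and 0.849 CPM against 0.322, 0.179 and 0.284 CPM. Control replicate 3 lay well under the other control samples and above all LiCl samples. The level was 8.91-fold lower with LiCl (log2 fold change −3.16, SE 0.55, adjusted p = 0.00155, edgeR). Over the 6 fits that each omit a sample, its log2 fold change ran from −3.55 (adjusted p = 9.74e-05, without control replicate 3) to −2.84 (adjusted p = 0.00509, without control replicate 1), and the largest adjusted p was 0.00784, without LiCl replicate 3. *Fxyd3* overlaps *Lgi4* on the opposite strand in GENCODE vM21, which held 35 to 82 counts over the 6 samples, and a part of it in these low counts was not tested.

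*Fxyd1* encodes phospholemman, which restrains the pump in heart and skeletal muscle. It stood at 16.0, 17.04 and 17.3 CPM in the controls and at 8.98, 8.02 and 9.68 CPM with LiCl. The groups were well apart, with a 1.89-fold lower level with LiCl (log2 fold change −0.92, SE 0.09, adjusted p = 8.42e-05, edgeR). All 6 skeletal muscle markers were called higher with LiCl by edgeR (median log2 fold change 2.95), against 2.74% of all tested genes. For 2 of the 6 the groups did not overlap. Muscle transcripts also differed between the LiCl samples. The summed CPM of the 6 markers was 29.9, 4.80 and 61.4 in LiCl replicates 1, 2 and 3 against 1.91 to 4.25 in the controls. *Fxyd1* was lowest in LiCl replicate 2, the LiCl sample with the least muscle RNA. With that replicate as the only LiCl sample, a choice made after seeing the data, *Fxyd1* had a log2 fold change of −1.06. In the same fit *Scnn1g* (−1.91) and *Fxyd3* (−3.69) also had larger falls than in the main fit. Those of *Atp1b1* (−0.78), *Scnn1a* (−1.96) and *Scnn1b* (−2.38) were smaller. The part of muscle RNA in the *Fxyd1* level was not tested.

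*Fxyd5* and *Fxyd6* did not pass the test. *Fxyd5* encodes dysadherin, a regulator of the pump that also bears on cell adhesion, and it stood at 3.03, 3.77 and 4.18 CPM in the controls and at 2.86, 2.83 and 2.84 CPM with LiCl. The control samples varied far more than the LiCl samples, and the lowest control sample nearly met them. The log2 fold change was −0.36 (SE 0.16, adjusted p = 0.0997, edgeR), and with each sample left out the adjusted p was 0.0444 without control replicate 1, the lowest control, and 0.174 to 0.313 in the other 5 fits. *Fxyd6* encodes phosphohippolin, known from brain and inner ear. It was the most abundant of the 8 genes in CPM, at 86.8, 85.0 and 84.8 CPM in the controls and 81.1, 81.04 and 81.3 CPM with LiCl. Control and LiCl samples stood apart without overlap but within 6 CPM of each other, with a log2 fold change of −0.08 (SE 0.04, adjusted p = 0.181, edgeR).

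The makeup of the FXYD family differed between the groups. The summed FPKM of its 7 genes was 42.2 ± 0.741 in the controls and 30.5 ± 1.54 with LiCl (SD, n = 3 each). *Fxyd6* made up 49.8%, 47.8% and 48.7% of this sum in the controls and 61.4%, 67.6% and 65.6% with LiCl, although its own level hardly moved. *Fxyd1* went from 18.0 ± 0.732% to 13.3 ± 1.17%. *Fxyd3* was a minor transcript in both groups, at 1.15 ± 0.647% in the controls and 0.176 ± 0.0429% with LiCl. The shares of *Fxyd1*, *Fxyd3* and *Fxyd6* did not overlap between groups, each with an exact two-sided permutation p of 0.1, while that of *Fxyd5* did overlap. In the rest of the family *Fxyd4*, the corticosteroid-induced CHIF of the collecting duct, was called lower. It stood at 14.0, 16.5 and 14.4 CPM in the controls and at 5.44, 3.47 and 2.696 CPM with LiCl (log2 fold change −1.94, SE 0.21, adjusted p = 1.09e-04, edgeR). Its share of the summed FPKM went from 17.9 ± 1.40% to 6.43 ± 2.06%, the largest loss of share in the family, at −11.4 percentage points against −4.63 for *Fxyd1*. *Fxyd7*, next to *Fxyd1* and *Fxyd5* in the genome, had a log2 fold change of −0.56 (adjusted p = 0.0401, edgeR). DESeq2 gave an adjusted p of 0.107 for it, and edgeR with each sample left out gave 0.0388 to 0.123.

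**Figure D2:**
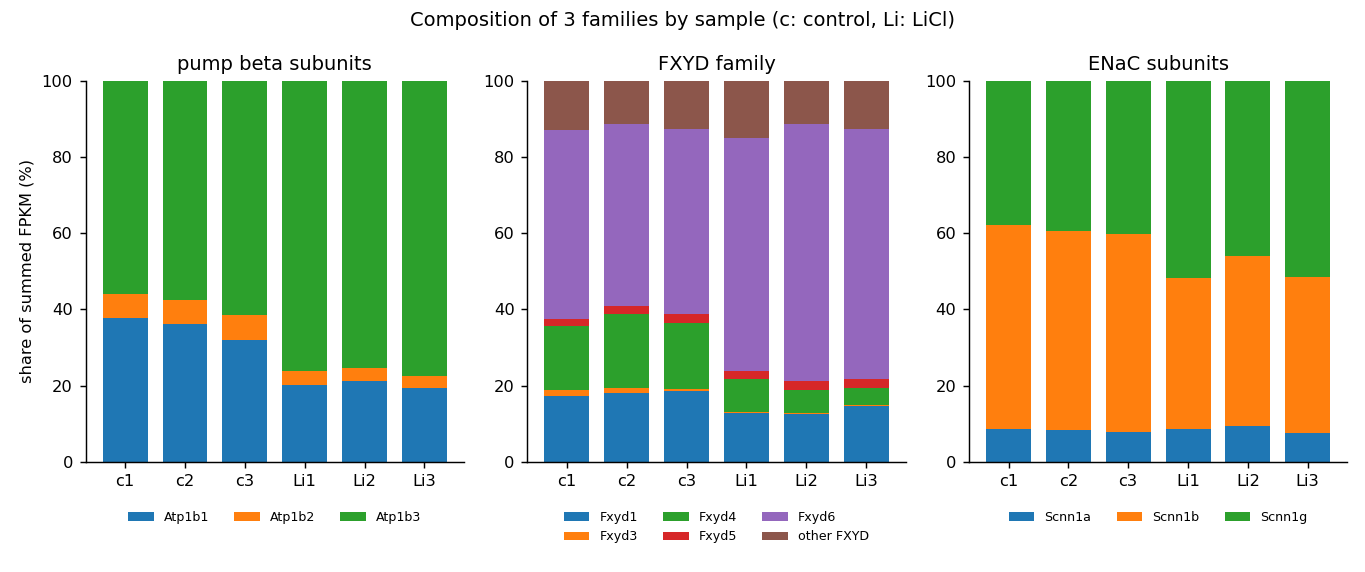
Share (%) of each gene in the summed FPKM of its family, as stacked bars for each control (c) and LiCl (Li) sample, for the pump beta subunits, the FXYD family and the ENaC subunits. *Atp1b3* and *Fxyd6* take larger shares in all 3 LiCl samples than in any control, and the ENaC subunits shift from *Scnn1b* towards *Scnn1g*.

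Within ENaC, where both transcripts fell, the share of the beta subunit was lower with LiCl and that of the gamma subunit higher. *Scnn1b* made up 53.6%, 52.5% and 52.2% of the summed subunit FPKM in the controls and 39.8%, 44.7% and 41.2% with LiCl. *Scnn1g* made up 37.8%, 39.3% and 40.1% in the controls and 51.6%, 45.9% and 51.4% with LiCl. Neither share overlapped between groups, and both had an exact two-sided permutation p of 0.1. *Scnn1g* was thus the most abundant subunit transcript per length in each LiCl sample and *Scnn1b* in each control sample. In LiCl replicate 2 the margin was narrow, at 45.9% against 44.7%. A part of *Cog7* in the *Scnn1b* share was not tested. The share of *Scnn1a* was 8.19 ± 0.463% in the controls and 8.44 ± 0.970% with LiCl, with overlapping groups (exact permutation p = 0.8). The summed FPKM of the 3 subunits was 29.0 ± 2.32 in the controls and 6.67 ± 0.551 with LiCl.

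Compared per length in FPKM, the controls ranked *Atp1b1* (23.7 ± 2.18), *Fxyd6* (20.6 ± 0.149), *Scnn1b* (15.3 ± 1.43), *Scnn1g* (11.3 ± 0.574), *Fxyd1* (7.59 ± 0.367), *Scnn1a* (2.38 ± 0.323), *Fxyd5* (0.863 ± 0.142) and *Fxyd3* (0.486 ± 0.273). No neighbours in this order overlapped between samples. With LiCl the order became *Fxyd6* (19.8 ± 0.0774), *Atp1b1* (13.2 ± 0.581), *Fxyd1* (4.07 ± 0.392), *Scnn1g* (3.31 ± 0.383), *Scnn1b* (2.79 ± 0.219), *Fxyd5* (0.679 ± 0.00489), *Scnn1a* (0.565 ± 0.0939) and *Fxyd3* (0.0540 ± 0.0153). There *Fxyd1* and *Scnn1g* overlapped. The beta and gamma subunits of ENaC thus lay above *Fxyd1* in each control sample, and *Scnn1b* lay below it in each LiCl sample.

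Most of the listed epithelial markers were lower with LiCl. Of 15 markers of the UE, 12 fell and 1 rose at an adjusted p below 0.05 (edgeR), against 22.4% and 21.1% of all tested genes. The simple epithelial keratins *Krt7* (log2 fold change −1.63, adjusted p = 1.02e-06) and *Krt19* (log2 fold change −1.20, adjusted p = 7.77e-05) were called lower, while the adhesion molecule *Epcam* rose (log2 fold change 0.37, adjusted p = 6.70e-04). Their summed CPM was 1684 to 2044 in the controls and 1241 to 1289 with LiCl. To set each gene beside this, the mean log2 CPM of the 15 markers was subtracted in each sample. That mean was itself 0.54 lower with LiCl on the log2 scale.

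Relative to the marker mean, 6 of the 8 genes still lay lower in every LiCl sample than in every control sample, a pattern shown by 4.88% of all tested genes. Subtracting a mean that was lower with LiCl raises every gene in the LiCl samples. This share is therefore smaller than the 27.8% found in plain CPM. *Scnn1b* went from −1.23 ± 0.0431 to −3.15 ± 0.101 on the log2 scale (SD, n = 3 each), *Scnn1a* from −3.26 ± 0.0910 to −4.79 ± 0.2298 and *Scnn1g* from −1.48 ± 0.0413 to −2.72 ± 0.148. The difference between the groups was −1.92 for *Scnn1b*, −1.52 for *Scnn1a* and −1.24 for *Scnn1g*, so the ENaC transcripts fell further than the markers did on average. *Fxyd3* differed by −2.17, *Fxyd1* by −0.37 and *Atp1b1* by −0.31. The groups were only narrowly apart for *Fxyd1*, at −2.73 in LiCl replicate 3 against −2.67 in control replicate 1. The 6 genes became 5 without *Epcam* among the markers and with the markers' summed CPM. Relative to the marker mean, *Fxyd6* lay 0.47 higher with LiCl and without overlap, and *Fxyd5* 0.20 higher with overlapping groups. Neither rose in its own CPM, where the log2 fold changes were −0.08 and −0.36. Both differences come from subtracting a marker mean that was 0.54 lower with LiCl. Each of the 7 genes without overlap had an exact two-sided permutation p of 0.1, the smallest possible, and *Fxyd5* had 0.4. Whether the 8 genes are expressed in the UE was not measured, and the share of epithelial cells in the fall was not tested.

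**Figure D3:**
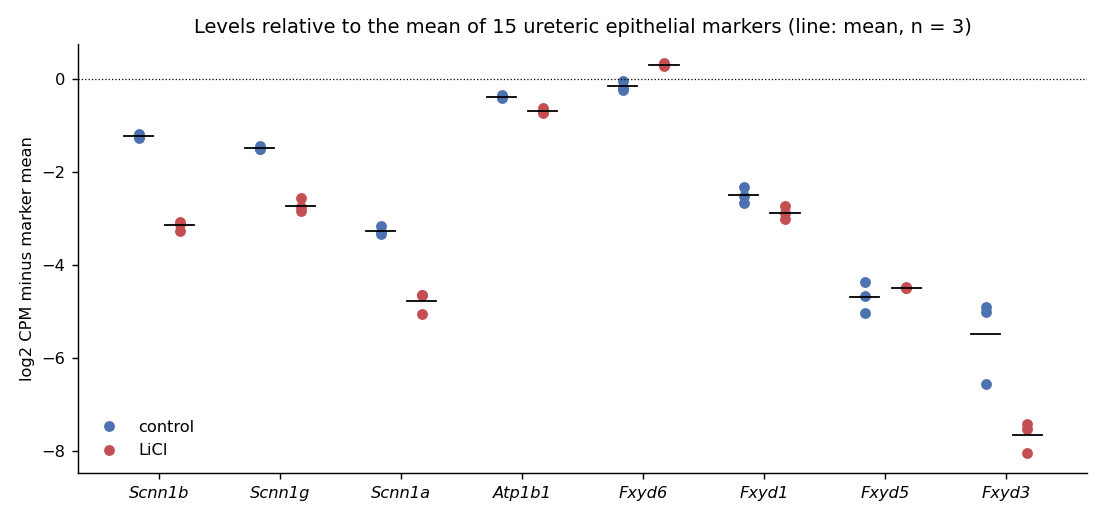
Log2 CPM of each gene minus the mean log2 CPM of 15 UE markers (vertical axis) in the 3 control and 3 LiCl samples, with lines at group means. The 3 ENaC subunits and *Fxyd3* drop clearly relative to the markers, and *Atp1b1* and *Fxyd1* slightly. *Fxyd6*, whose own level hardly moved, lies higher with LiCl because the marker mean is lower.

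Markers of other lineages were also compared between the groups. The 12 UM markers were mixed, with 6 that fell and 3 that rose. Their summed CPM was also lower with LiCl without overlap, at 7487 to 8176 in the controls and 5884 to 6469 with LiCl. Of 10 collecting duct and nephron markers, *Umod* and *Slc34a1* were at 0 in all samples, and the summed CPM of the list was 4.80 to 5.93 in the controls and 6.24 to 6.98 with LiCl. *Aqp2*, the water channel of collecting duct cells that carry ENaC, had a mean of 0.0225 CPM in the controls and no count with LiCl. The 6 nerve and glia markers had adjusted p from 0.0503 to 0.710 by edgeR, with summed CPM of 138 to 161 in the controls and 111 to 158 with LiCl. Endothelial markers summed to 392 to 487 CPM in the controls and 332 to 418 CPM with LiCl, where 1 of 4 markers, *Tek*, was called lower (log2 fold change −1.15, adjusted p = 6.11e-04, edgeR). Macrophage markers summed to 36.4 to 57.2 CPM and 40.8 to 49.9 CPM, and of their 4 genes 2 fell, with *Fcgr1* called lower (log2 fold change −2.56), and 1 rose. The part of these cell types in the 8 genes was not tested.

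The other genes of sodium transport gave a milder picture. Of 56 further genes in 6 lists, 50 were tested, and edgeR called 5 lower and 0 higher, DESeq2 4 and 0, where edgeR called 4.59% of all tested genes lower and 2.74% higher. Without the fold minimum 22 fell and 9 rose, against 22.4% and 21.1% of all tested genes, and their median log2 fold change was −0.17. Single lists hold few genes, and their counts are descriptions beside these shares. Among the 6 other pump subunits, 3 fell and 1 rose. *Atp1b2* and *Atp1b3*, described above, were among them.

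Of 13 regulators of ENaC and of the aldosterone response, 4 fell and 1 rose. *Nr3c1*, the glucocorticoid receptor, fell by 0.65 on the log2 scale (adjusted p = 1.74e-05). *Hsd11b2*, which inactivates glucocorticoids and so shields the mineralocorticoid receptor, fell by 0.51 (adjusted p = 7.53e-04). *Tsc22d3*, the glucocorticoid-induced leucine zipper GILZ, was the gene that rose, from 88.7 ± 6.80 CPM to 167 ± 8.10 CPM (SD, n = 3 each), a log2 fold change of 0.92 with an adjusted p of 9.30e-06. The receptor and its inducible target thus went in opposite directions.

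Channel cleavage by serine proteases opens ENaC. Of 7 tested proteases and inhibitors, 4 fell and 1 rose. The transmembrane protease *Tmprss2* was called lower, at 101, 109 and 90.4 CPM in the controls and 51.6, 46.4 and 44.8 CPM with LiCl (log2 fold change −1.07, adjusted p = 1.26e-05, edgeR). *Prss8*, the channel-activating protease prostasin, fell by 0.62 (adjusted p = 1.65e-04), and the protease inhibitor *Spint1* by 0.64 (adjusted p = 8.62e-05).

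The potassium and chloride channels that accompany sodium uptake gave 7 genes that fell among 11 tested, and the other 4 did not pass. *Kcnj16*, a subunit of basolateral inward rectifier channels, was called lower, at 48.9, 47.2 and 43.7 CPM in the controls and 13.7, 11.6 and 9.97 CPM with LiCl (log2 fold change −1.98, SE 0.10, adjusted p = 1.57e-06). *Kcnq1*, a voltage-gated channel of epithelia and heart, was called as well, at 1.30 ± 0.0921 CPM and 0.441 ± 0.151 CPM (log2 fold change −1.53, adjusted p = 0.00257). Its epithelial partner *Kcne3* had a log2 fold change of −0.90 (adjusted p = 0.00727).

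The sodium carriers outside pump and channel were the list with more genes up than down. Of 10 tested, 6 rose and 2 fell, and the median log2 fold change was 0.26. The taurine carrier *Slc6a6* rose by 0.57 on the log2 scale (adjusted p = 4.30e-05), the myo-inositol carrier *Slc5a3* by 0.45 (adjusted p = 0.00566) and the Golgi sodium/proton exchanger *Slc9a8* by 0.40 (adjusted p = 0.00332). The first 2 import organic osmolytes. The sodium/proton exchanger *Slc9a2* was called lower at low levels, 0.936 ± 0.150 CPM and 0.441 ± 0.132 CPM (log2 fold change −1.09, SE 0.31, adjusted p = 0.0196). DESeq2 gave an adjusted p of 0.0743 for it.

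**Figure D4:**
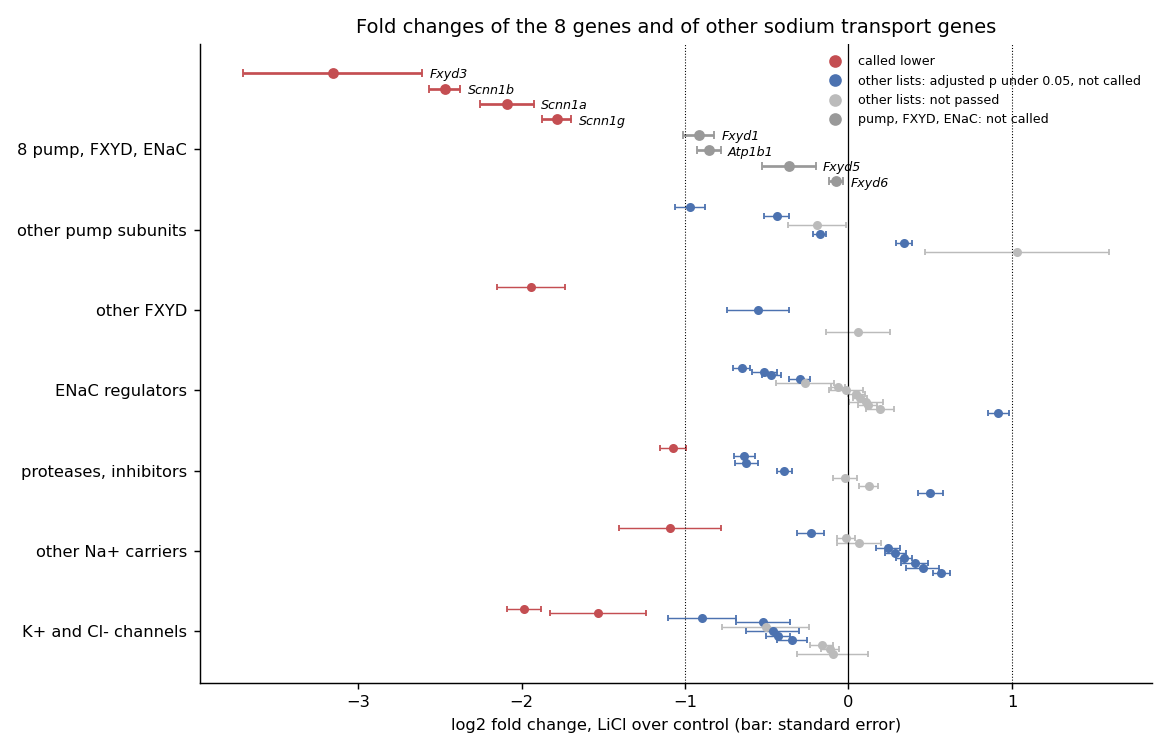
Log2 fold change of LiCl over control with its standard error (horizontal axis) for the 8 genes, named, and for the 50 other tested sodium transport genes by list (vertical axis), with dotted lines at the fold minimum. Red marks genes called lower, and the sodium carriers are the row with most points to the right of 0.

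The genes most like the 4 called genes over the 6 samples were sought among 15440 other tested genes that averaged 1 CPM or more, by the Euclidean distance between log2 CPM profiles centred on each gene. For *Scnn1a* the nearest was *Kcnj16* at a distance of 0.262, then *Cldn23* (0.295) and *Adra2c* (0.326). For *Scnn1b* they were *Adra2c* (0.291), *Clu* (0.338) and *Aqp4* (0.441). *Scnn1g* lay closest to *Sh2d4a* (0.228), *Foxa1* (0.247) and *Npsr1* (0.248). The distances for *Fxyd3* were larger, 1.09 to *Krt23*, 1.23 to *Aqp3* and 1.28 to *Ogn*. *Adra2c*, the alpha2C adrenergic receptor, was thus among the nearest for both *Scnn1a* and *Scnn1b*. It stood at 10.4, 10.2 and 9.11 CPM in the controls and at 2.25, 2.04 and 1.74 CPM with LiCl. The points of these profiles share the 6 libraries and hold the difference between the groups.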

How the data were processed

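Per the labels, poly-A RNA from E12.5 ureter explants was turned into stranded libraries, and the submitters' processing notes list fastp 0.23, STAR 2.7, featureCounts 2.0, DESeq2 1.40 and GRCm39, whereas the methods name HISAT2 as aligner. The authors deposited raw counts per gene in 1 table and FPKM per sample, which within each gene was proportional to the count over a size factor per sample. Totals were 28473436 to 31266945 counts, so depth limited only the low genes. Symbols came from GENCODE vM21 (52073 of 56748 identifiers matched).

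Counts were filtered with filterByExpr, scaled by TMM and tested with edgeR 4.0.16 (quasi-likelihood, Benjamini-Hochberg) in R 4.3.3, after a check on simulated data. FPKM served for shares and levels between genes. Alternatives used DESeq2 1.42.0, limma 3.58.1, other scalings and filters, a replicate block and samples left out. Same-numbered samples did not deviate together (correlations 0.02, −0.15 and 0.12). Named were all 8 genes, each list's called genes and up to 3 with the largest change at an adjusted p below 0.05 and the 3 nearest profiles, apart from 1 gene of the pump list that is not reported here. The neighbours *Cog7*, *Nme7* and *Lgi4*, and markers, were named after their values were seen. The 8 genes and all lists were chosen with earlier results of these data known.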

Additional observations from a re-analysis of the deposited data

How the results depend on the processing

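The number of the 8 genes called lower was 4 with RLE size factors, library size alone, DESeq2, no filter, the replicate block and each sample left out in turn. It fell to 3 when 10 counts were asked of every sample and with limma on log2(FPKM + 1) or log2(FPKM + 0.1), where *Fxyd3* left the test by the filter, and 6 without the fold minimum. None was called higher in any setting. The log2 fold change of *Scnn1a* was −1.11 on the log2(FPKM + 1) scale, which understates low genes. Of the further sodium transport genes, 5 were called lower under the replicate block, which changed no call here. Their number was 3 when 10 counts were asked of every sample, 2 with limma on log2(FPKM + 1) and 3 with log2(FPKM + 0.1). It was 6 with library size alone, where *Atp1b2* was added, and 6 with no filter, where *Tmprss4* was added. Without the fold minimum it was 22, and 9 were called higher. It ranged from 3 to 6 with each sample left out, the 3 coming without control replicate 2, where *Slc9a2* (adjusted p = 0.0568) and *Tmprss2* (just under the fold minimum) were lost. *Slc9a2* was also lost without control replicate 3 (adjusted p = 0.0715, edgeR) and without LiCl replicate 1 (adjusted p = 0.0716). In these fits *Tmprss4* and *Atp1b2*, respectively, were called lower instead. Relative to the UE markers the 6 genes lower without overlap became 5 without *Epcam* in the list and with the markers' summed CPM. With CPM in place of FPKM the change in share, in percentage points, was −1.56 for *Fxyd3* (−0.974 in FPKM), 12.8 for *Fxyd6* (16.1 in FPKM) and −0.0586 for *Fxyd5*, which reversed from 0.184, since CPM is not scaled by length.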
